A study of Mus musculus with 7 samples.

Results

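CTCF peaks were examined across the protein-coding genes of the mouse autosomes in liver. The members were all 74980 autosomal peaks of the pooled CTCF list, out of 76683 CTCF peaks on all chromosomes and 144052 CTCF and Rad21 peaks in the series. Each peak was placed by its summit, the base with the most sequenced fragments, on 21418 autosomal protein-coding genes of the GENCODE vM1 annotation of build mm9 and on their 44018 transcription starts. The study sought the CTCF sites that anchor loops and domains in liver chromatin. It used chromatin immunoprecipitation and sequencing (ChIP-seq) on livers of male CD-1 mice, Crl:CD1(ICR), at 8 weeks of age, with no treatment or mutation in any animal. One group of 4 libraries was made with an antibody to CTCF, and the other, of 3 libraries, with an antibody to the cohesin subunit Rad21. Both lists hold peaks called on pooled reads, so a value below has no spread between mice and no p-value, and intervals on shares are 95% Wilson intervals that cover counting error only.

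CTCF is a zinc finger protein that binds an asymmetric DNA motif and halts cohesin, the ring-shaped complex that extrudes chromatin loops. Its sites between genes can separate enhancers from promoters, and its sites at promoters can bring distant enhancers close to a transcription start. In liver most cells are hepatocytes, while Kupffer cells (resident macrophages), stellate cells, endothelial cells and cholangiocytes are fewer, and whole tissue mixes them all. Peak lists carry no expression values, so the tissue label could not be checked against marker transcripts.

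The 3 strongest start-proximal summits and the 2 strongest in gene bodies beyond 1 kb of a start are shown first, because the following values separate these places. The windows are 60 bases of the plus strand of mm9, and capitals mark the match to the CTCF motif. The first 3 windows lie just upstream of transcription starts, that of Gbas at chr5:130230847-130230906, that shared by Exosc8 and Alg5 at chr3:54539316-54539375, and that of Rapgef1 at chr2:29475135-29475194. The window of Gdf15, at chr8:73153770-73153829, lies in a coding exon, and that of Armc9, at chr1:88075606-88075665, in an intron.
Gbas: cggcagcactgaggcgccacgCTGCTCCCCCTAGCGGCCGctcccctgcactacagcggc
Exosc8 and Alg5: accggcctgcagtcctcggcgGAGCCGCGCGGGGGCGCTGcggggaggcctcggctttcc
Rapgef1: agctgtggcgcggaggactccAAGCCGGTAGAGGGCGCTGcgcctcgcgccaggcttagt
Gdf15: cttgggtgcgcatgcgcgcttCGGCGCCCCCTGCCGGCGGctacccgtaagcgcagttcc
Armc9: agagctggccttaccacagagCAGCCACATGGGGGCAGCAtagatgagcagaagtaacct

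The motif was learnt from the 2000 strongest summits and is called a match where it scores above the level reached by 1.02% of windows 2000 bp from the summits. Its fixed letters, where 1 base makes up at least 75% of the aligned sites, read NNNCCNNNAGNNGGCNNNN. A match was found at 45.5% of all summits, and the learning on strong summits means that matches are found more readily among strong ones. The windows of Gbas and Gdf15 hold the match on the minus strand, and the other windows above on the plus strand. Strong summits without a match are shown for contrast, in windows of 60 bases centred on the summit, at chr9:96789948-96790007 for Acpl2 and at chr14:32249309-32249368 for Sh3bp5. The lack of capitals says only that no stretch scored above the limit.
Acpl2: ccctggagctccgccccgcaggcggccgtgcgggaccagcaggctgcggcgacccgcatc
Sh3bp5: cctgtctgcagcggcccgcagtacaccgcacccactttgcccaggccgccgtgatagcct

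CTCF summits gathered at transcription starts. Of the 74980 summits, 14220 lay within 1 kb of a protein-coding start, called start-proximal here, a share of 18.97% (18.7 to 19.2%). That zone covers 2.36% of sequenced autosomal bases, so its summits were 8.04 times as dense as over the whole. Introns beyond the zone held 29893 summits, or 39.9%, on 35.8% of bases. Regions outside genes held 28104 summits, or 37.5%, on 59.6% of bases. Coding exons beyond the zone held 1628 summits, 1.86 times their share of bases, and the untranslated parts of exons held 1135, 1.47 times their share. Within 1 kb of gene ends, and over 1 kb from any start, there were 1955 summits at 1.72 times the share of bases. The median distance of a summit to the nearest start was 14364.5 bp, and 10.7% of summits lay over 100 kb from any start.

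The summits were not placed evenly around the start. The bins of 100 bp just downstream of the start held 2493 and 2539 summits, while the bins just upstream held 1624 and 1345. The farthest upstream bin plotted held 105. The motif split these sides. Within 250 bp upstream, 28.7% (27.2 to 30.2%) of 3422 summits held a motif match, against 9.75% (9.00 to 10.6%) of 5641 summits within 250 bp downstream. Both sides lay below the 52.7% of summits found 2500 to 10000 bp from a start. Rad21 overlap ran the other way. A Rad21 peak overlapped, by at least 1 bp, 91.6% of the peaks with a summit 100 to 200 bp downstream, and 61.3% of those 2500 to 10000 bp away.

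**Figure D1:**
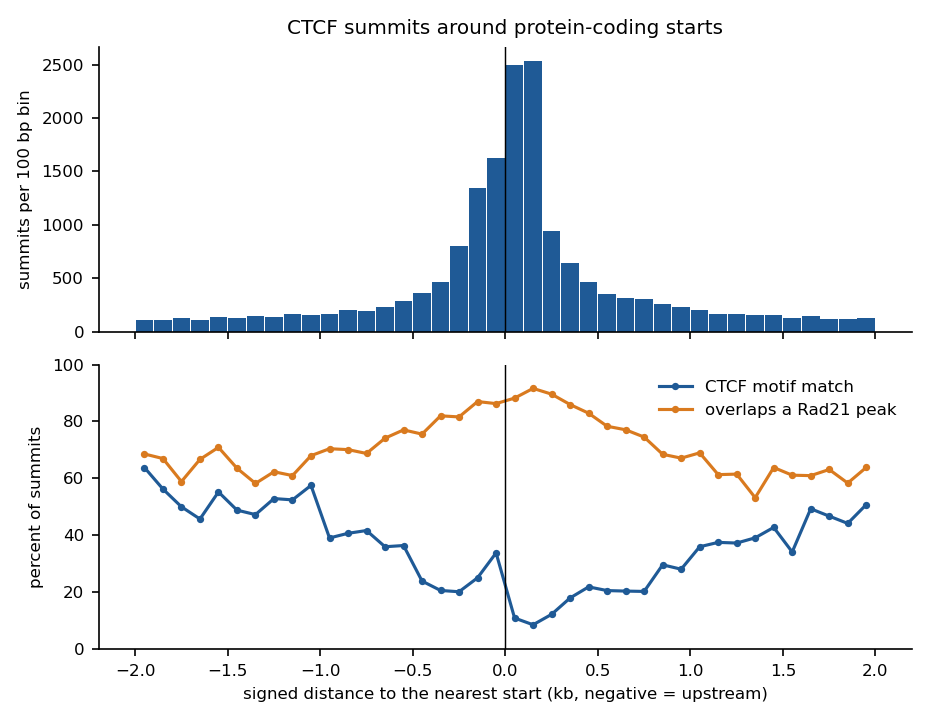
Upper panel, number of CTCF summits per bin of 100 bp against the signed distance to the nearest protein-coding start in kb; lower panel, percent of those summits with a CTCF motif match and percent whose peak overlaps a Rad21 peak. Counts are highest in the 200 bp after the start, where the motif share is lowest, at 8.55% in the bin from 100 to 200 bp.

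Motif direction was uneven just upstream of starts. Starts with another start on the opposite strand within 1 kb were left out here. Of 929 summits with a match within 250 bp upstream, 619 had the motif on the strand of the gene, a share of 66.6% (63.5 to 69.6%). Of 645 such summits 250 to 1000 bp upstream the share was 54.6% (50.7 to 58.4%). Of 482 such summits within 250 bp downstream the share was 53.5% (49.1 to 57.9%), and of 568 summits 250 to 1000 bp downstream it was 47.5% (43.5 to 51.6%). The interval of the first share does not reach those of the others.

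How strong the start-proximal summits were depended on the measure. The number of fragments at a summit, recovered from the deposited fold and p-value, ranged from 16 to 4307 over all summits, with a median of 69. Start-proximal summits had a median of 82 fragments (95% interval of the median 80 to 83), and other summits a median of 64 (63 to 65), a ratio of 1.28. The fold over local background gave the opposite order, with a median of 6.38 at start-proximal and 6.72 at other summits. The ratio of median fragments also turned below 1, to 0.868, among peaks with a score of at least 100 and to 0.746 among peaks that overlap the authors' class list of sites found in 2 or more livers. Start-proximal summits were scarce among the weakest and most common in the middle of the range. The lowest quintile of summits by fragments held 8.75% start-proximal ones, the middle quintile 29.5% and the highest quintile 16.6%.

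Summits with a motif match were stronger than those without, at starts and away from them. Part of this is by construction, since the motif was learnt from the 2000 strongest summits. Start-proximal summits with a match numbered 2806 and had a median of 259 fragments (241 to 277). Those without a match numbered 11414 and had a median of 72 (70 to 73). Away from starts the medians were 153 (150 to 157) with a match and 37 (37 to 37) without. A strong summit, meaning one with at least 390 fragments and so in the top decile, made up 37.1% of the first group, 5.003% of the second, 16.5% of the third and 2.48% of the fourth. At starts the motif was scarce in weak and middle summits alike. In the middle quintile by fragments, 9.34% (8.52 to 10.2%) of start-proximal summits held a match, against 50.4% (49.4 to 51.3%) of the others, while in the highest quintile the shares were 57.7% and 86.6%. Windows 2000 bp from the summit held a match at 1.08% for start-proximal summits and at 1.002% for the others, but the former lie at least 1 kb from the start in question and do not give the rate of the sequence at starts.

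**Figure D2:**
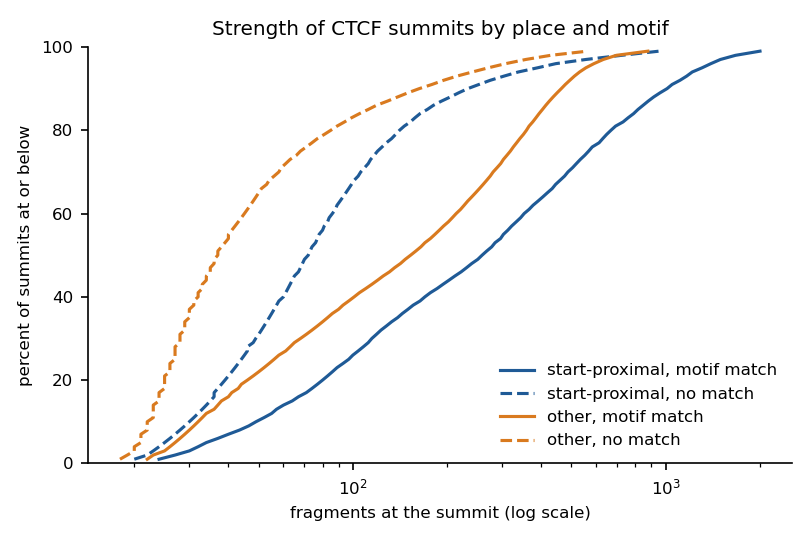
Cumulative percent of CTCF summits against fragments at the summit on a log scale, for start-proximal and other summits with and without a motif match. The start-proximal summits with a match lie farthest to the right, with a median of 259 fragments, and the other summits without a match farthest to the left, with a median of 37.

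Rad21 followed a different pattern. In the lowest quintile of summits, Rad21 overlapped 45.5% (42.8 to 48.2%) of start-proximal peaks and 33.9% (33.1 to 34.7%) of the others. In the middle quintile the shares were 88.2% and 58.5%, and in the highest quintile they were 98.99% and 98.91%. Start-proximal summits of middle strength thus had fewer motifs and more Rad21 than summits elsewhere with as many fragments. The open chromatin at each start was not measured in these files, and its part in these shares was not tested.

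**Figure D3:**
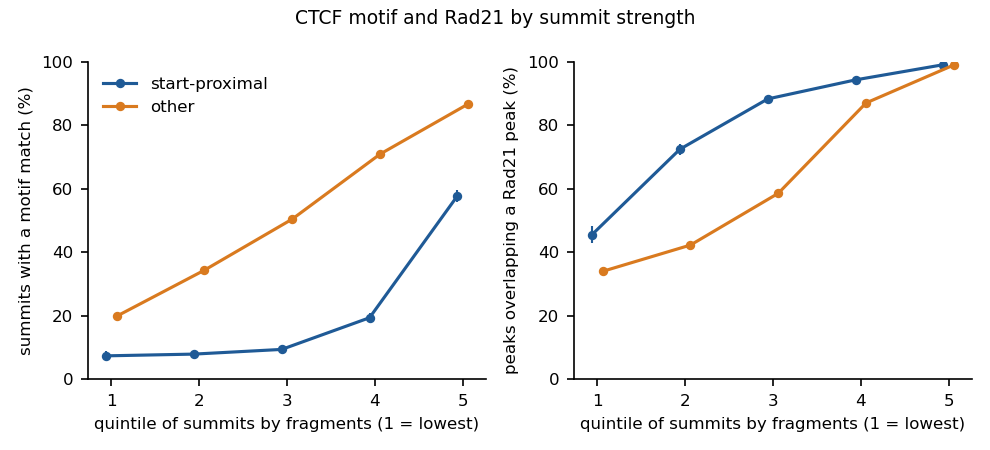
Percent of summits with a motif match (left) and percent of peaks overlapping a Rad21 peak (right) in quintiles of all summits by fragments, for start-proximal and other summits, with 95% Wilson intervals as vertical lines. In the middle quintile the start-proximal points stand at 9.34% for the motif and 88.2% for Rad21, against 50.4% and 58.5% elsewhere.

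Turning from summits to genes, 11771 genes had a start-proximal summit, which is 55.0% of all protein-coding genes (54.3 to 55.6%). A summit within the gene body was present in 62.6%, and a strong start-proximal summit in 7.97%. At the other end, 20% (19.4 to 20.5%) had no summit in the body or within 10 kb of it and are called peak-free here. These shares are the background for every group of genes below. The number of summits in a body was 0 in 8002 genes, 1 in 4811, 2 in 2994, and 10 or more in 746 genes, or 3.48%. Those 746 genes together covered 14.97% of all summits. Far fewer genes reached this number with a score of at least 100 or on the class list, as the section on processing gives. Assigning each summit to its nearest start gave another picture of ownership, since 17.5% of the 43045 summits in gene bodies lay nearest to the start of a gene that does not contain them.

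The counts moved with gene length. Genes in the shortest decile, up to 1080 bp long, had a start-proximal summit in 8.50% and were peak-free in 71.3%. Many of them were olfactory (Olfr) and vomeronasal (Vmn) receptor genes, and without those the shares over the remaining 1124 of 2142 genes were 15.7% and 53.1%. In the ninth decile, with a median length of 72771 bp, the shares were 73.8% and 5.23%. The density within bodies was 5.81 summits per 100 kb in the shortest decile and 14.1 in the second, and fell from there to 2.93 in the longest. Without the receptor genes the shortest decile had 13.5. The share also moved with the sequence at the start. Genes were ranked by the ratio of observed to expected CpG within 500 bp of the start, a measure of how far the start resembles a CpG island, the unmethylated CpG-rich promoter type of most broadly expressed genes. A start-proximal summit was present in 10.9% (10.1 to 11.7%) of genes in the lowest quartile, 38.2% in the second, 81.3% in the third and 89.5% (88.7 to 90.3%) in the highest. The strong ones followed the same order, at 1.44% in the lowest quartile and 13.4% in the highest. Genes with an opposite-strand start within 1 kb, the arrangement of divergent promoters, held a start-proximal summit in 84.6% (83.1 to 86.0%) of 2459 cases, against 51.1% of the other 18959.

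**Figure D4:**
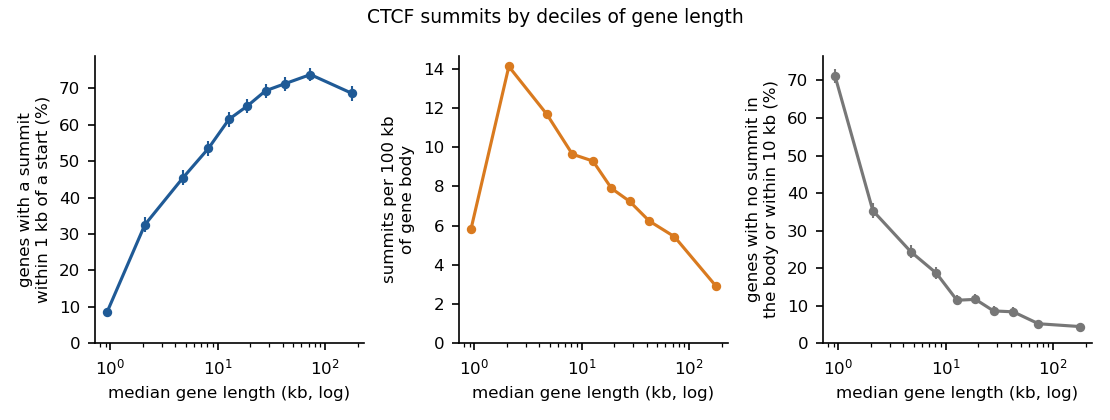
CTCF summits in deciles of genes by length, plotted against the median gene length of each decile in kb on a log scale: percent of genes with a start-proximal summit, summits per 100 kb of body, and percent of peak-free genes, with 95% Wilson intervals on the shares. The shortest decile stands apart with 8.50% start-proximal and 71.3% peak-free genes, which become 15.7% and 53.1% without the olfactory and vomeronasal genes (not plotted).

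The genes with the most summits were long. The record of Gm20388 on chromosome 8 held 373 summits, but it is 4.43 Mb long and contains 72 other protein-coding genes. Fgfr2, a fibroblast growth factor receptor, held 147 in a record of 3.01 Mb that contains 31 other genes. These counts describe the annotated records and not single transcription units. Among the rest, Rora, a nuclear receptor of the circadian clock and of metabolism, led with 57 summits over 734461 bp. It also had the most summits assigned by nearest start, 56. Arfip1 followed with 51 in a record of 1391424 bp that contains 5 other genes, Arhgap26 with 50, Zbtb20, a repressor of the fetal gene Afp in liver, with 43, Sox5 with 41, Camta1 and Rad51l1 with 39 each and Fry with 38. The choice of transcript changed several of these counts. In the longest protein-coding transcript alone, Sox5 held 13, Fry 22 and Arhgap26 30, while Rora kept 57. By nearest start, the proto-oncogene Myc received 39 summits although its body is 4984 bp long and holds 2.

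Density picked out a different set, of genes of at least 20 kb with at least 5 summits. Slc24a6, a sodium and calcium exchanger, had 8 summits over 22857 bp, or 35 per 100 kb. Tef, a circadian transcription factor, had 32.7 per 100 kb, with 6 summits near its starts, none above 154 fragments. Suds3, a subunit of the Sin3 corepressor complex, had 28.8 and a strong start-proximal summit of 939 fragments. Onecut1, the hepatocyte factor HNF6, had 28.7. Slc13a2, Setd1b, Ppm1k, Minpp1, Prr5 and Smad9 followed with 26.3 to 27.9 per 100 kb. For scale, all gene bodies together had 4.58 per 100 kb.

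The strongest start-proximal summit, of 4170 fragments, lay 49 bp upstream of Gbas on chromosome 5. Exosc8, a subunit of the RNA exosome, and Alg5, a glucosyltransferase of protein glycosylation, point away from each other and share the next, of 3974 fragments, 38 bp upstream of the start of Exosc8. Rapgef1, an exchange factor for the GTPase Rap1, followed with 3719, Acbd4 with 3516, Ick with 3349 and Adprhl2 with 3287. Lsm11, a subunit of the histone pre-mRNA processing complex, had 3218, Vps36, of the ESCRT machinery, 3143, and Bptf, of the NURF chromatin remodeller, 3033. All 10 genes drew on summits 25 to 229 bp upstream of the nearest start, with a motif match and a Rad21 peak at each. The motif was learnt from the 2000 strongest summits, these among them, so a match here is largely built in. In the highest quintile 98.99% of start-proximal peaks overlapped Rad21, so the Rad21 peaks do not set these summits apart. Bodies of genes, over 1 kb from a start, held weaker extremes apart from Gdf15, which encodes a stress hormone of the TGF-beta family. Its coding exon carried the summit with the most fragments of all, 4307. Others among the first 10 were in Armc9 with 2149 fragments, Twf2 with 1913, Cacna1a with 1912, Klf1, an erythroid transcription factor, with 1820, and Sec22c with 1818. Rdh13 with 1812, Fam129b with 1753 and Adcy5 with 1691 closed the list. Of the summits named here from gene bodies, that of Rdh13 alone had no motif match. These summits, too, were among the 2000 used to learn the motif.

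The 10 longest genes without a summit in the body or within 10 kb were ranked by their annotated span. Skint5 and Skint6, of a family that selects epidermal T cells, spanned 521613 and 482358 bp. Edil3, an extracellular matrix protein, spanned 501752 bp, Khdrbs2, a splicing factor of the brain, 484933 bp, and Gpr158 463006 bp. Dok6, Klhl1, Spock3 and Epha5, an ephrin receptor, spanned 359592 to 468447 bp. Gm10406 belongs to this set by the rule, but only 8.00% of the 50-base words around its start occur once in the genome, so reads could hardly be placed there. For Skint5 the value was 56.0%, and for the other 8 it was at least 97.3%.

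Wider regions without summits held few genes. The longest stretch between neighbouring summits with no more than 50000 unsequenced bases was 3592797 bp on chromosome 14 and contained no protein-coding gene. A stretch of 3496676 bp on chromosome 13 contained Edil3 and Gm8526. Those of 3450117 bp on chromosome 11 and 3218260 bp on chromosome 8 contained no whole gene and reached into Vstm2a and Aga. A stretch of 3078366 bp on chromosome 4 contained Mmp16, a membrane metalloproteinase, and Cnbd1. In all, 147 stretches of at least 1 Mb held 562 of the 21418 genes, of which 240 were olfactory receptors, of 1106 in all. A further 153 had Gm symbols, given to gene models without a name, of 1858 in all, for which a median of 82% of 50-base words around the start were unique. Of 327 genes with Vmn symbols 27 were there, and of 26 prolactin family members 21. The median gap between neighbouring summits was 10901 bp. Over the 19 autosomes the density ran from 23.6 summits per Mb on chromosome 3 to 47.6 on chromosome 11, and followed the density of genes with Pearson's r = 0.817 and Spearman's rho = 0.886, given as a description. Without chromosomes 7 and 11, the farthest from the median gene density, r was 0.884. Chromosome 7 had the most genes per Mb, 14.6, and 33.2 summits per Mb.

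Several families in large gene clusters were nearly devoid of CTCF peaks at their annotated starts, among them sensory receptors. Olfactory receptors, the odorant receptors of nasal neurons, had a start-proximal summit in 6 of 1106 genes, or 0.542% (0.249 to 1.18%), against the 55.0% of all genes. Their records had a median length of 960.5 bp, and a start farther upstream, if missing from the annotation, was not covered. Of the olfactory genes 88.9% were peak-free, with no summit in the record or within 10 kb of it. Vomeronasal receptors, which detect pheromones, had 1 of 203 genes of type 1 and 0 of 118 of type 2, with 96.6% and 94.9% peak-free. All 26 members of the prolactin family, hormones of pituitary and placenta, were peak-free. Keratin-associated proteins of hair had 0 of 46 and bitter taste receptors 1 of 35. Genes with Olfr and Vmn symbols, which include a few outside these families, made up 1297 of the 4276 peak-free genes, or 30.3%. Without them, 58.9% of the remaining genes had a start-proximal summit and 14.9% were peak-free. Their starts were CpG-poor, with 970 of the olfactory genes in the lowest CpG quartile. In that quartile 1 olfactory gene in those 970 had a start-proximal summit, against 10.9% of all genes of the quartile. Vomeronasal receptors there had 1 of 198 for type 1 and 0 of 115 for type 2, and keratin-associated proteins 0 of 33 (0 to 10.4%). Prolactins there had 0 of 23 (0 to 14.3%) and bitter taste receptors 1 of 34 (0.521 to 14.9%). These last intervals include the 10.9%, so these families were not shown to differ from CpG-poor genes in general. The strongest start-proximal summit of an olfactory gene was that of Olfr718-ps1, at 112 fragments. Olfr56 held 7 summits in a record of 156499 bp, but 5% of the words at its start were unique.

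Near-identical copies limit part of this, since the authors kept reads with a unique position only. Around the starts of major urinary proteins, pheromone carriers made in liver, a median of 18.0% of 50-base words were unique, and of alpha-defensins 17.0%. Neither family had a start-proximal summit, in 21 and 12 genes. Their lack of peaks cannot be told apart from a lack of usable reads. The medians were 96% for olfactory receptors, 84% and 90% for the vomeronasal types and 97% for prolactins. Genes with under 80% unique words at the start numbered 1889, of which 5.61% had a start-proximal summit, and the remaining 19529 had one in 59.7%.

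By the leading letters of gene symbols, 105 groups had at least 20 members. The lowest shares were 0 for Klk (kallikrein proteases, 27 genes), Krtap, Mup and Prl, followed by Vmn, Olfr, Serpina with 1 of 22 and Tas with 3 of 38. The highest were Cep (centrosomal proteins) with 20 of 20, Snx (sorting nexins) with 29 of 30, Med (Mediator subunits) with 28 of 29, and Tbc with 25 of 26. Mrps had 28 of 30, Ube (ubiquitin-conjugating enzymes) 36 of 39, Zbtb 34 of 37 and Eif 50 of 55.

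**Figure D5:**
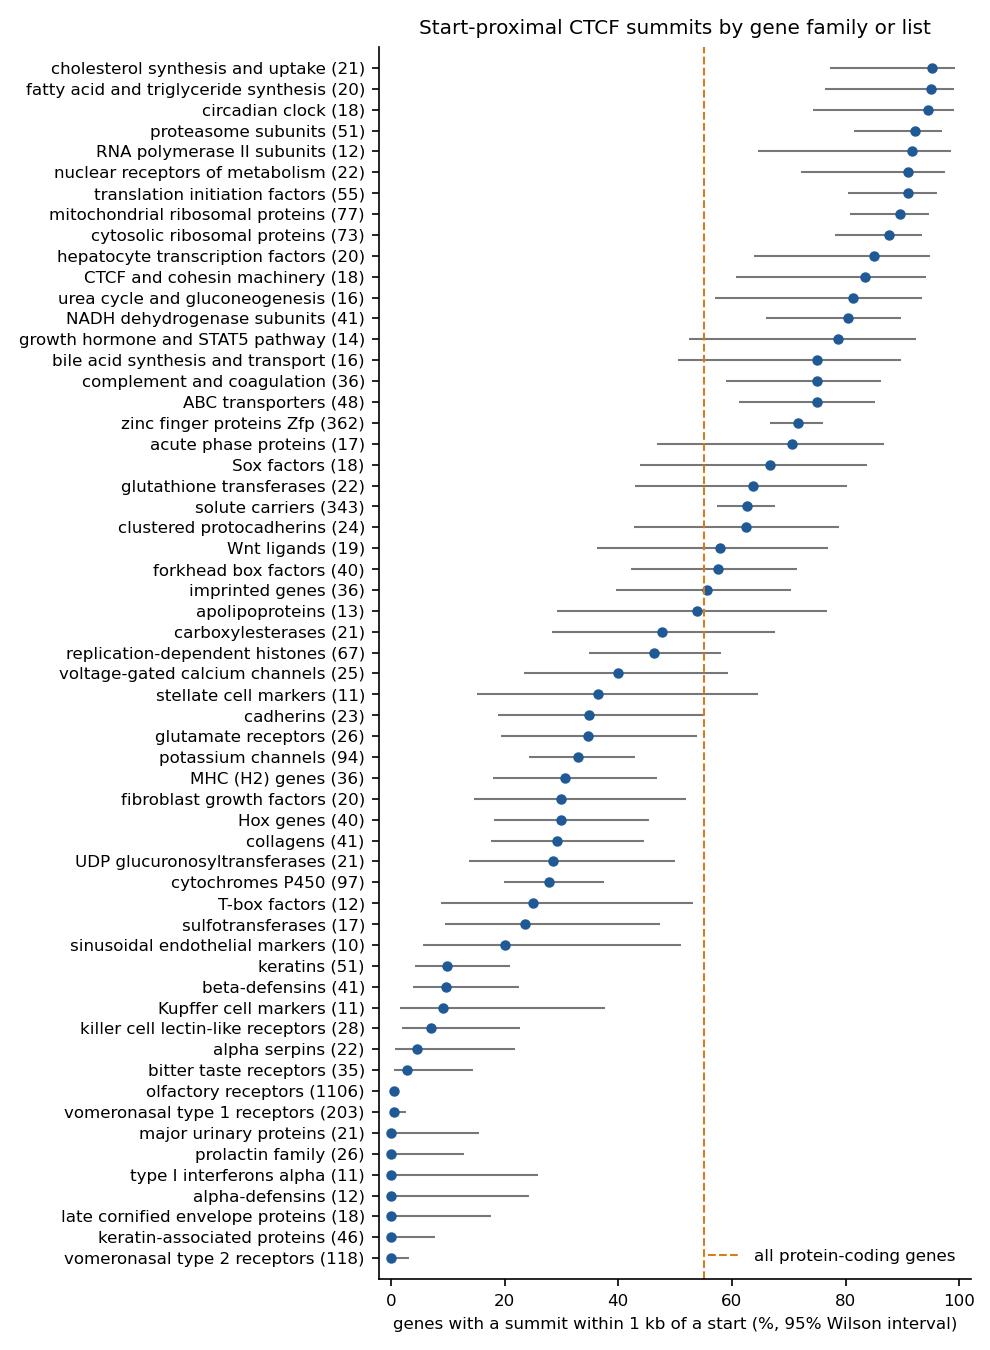
Percent of genes with a start-proximal CTCF summit in each family or list of at least 10 genes, with the number of genes in brackets, 95% Wilson intervals as lines and the 55.0% of all protein-coding genes as a dashed line. Sensory receptors lie at the bottom, near 0, while proteasome, ribosomal and lipid synthesis genes lie above 85%.

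The shares of housekeeping complexes lay above the background, with 1 exception. Over 7 lists of such complexes, 280 of 317 genes had a start-proximal summit, or 88.3% (84.3 to 91.4%), and 16.1% (12.4 to 20.5%) a strong one, against 7.97% of all genes. Most of these genes were rich in CpG at the start, and in the third and the highest CpG quartile a strong one was present in 11.6% and 13.4% of all genes. The exception was replication-dependent histones, described with the CpG-rich starts that follow, and with them the share over 8 lists was 311 of 384, or 81.0% (76.8 to 84.6%). Cytosolic ribosomal proteins had 64 of 73, led by Rplp0 at 1755 fragments. Mitochondrial ribosomal proteins had 69 of 77, led by Mrpl17 at 1704. Proteasome subunits had 47 of 51, led by Psmd6 at 1563, and translation initiation factors 50 of 55. Eif2c1, an argonaute gene that the symbol rule places with the initiation factors, led these with 2582. NADH dehydrogenase subunits had 33 of 41 and chaperonin subunits 6 of 8. Of the 317 genes of the 7 lists, 292 were in the upper 2 quartiles. There, 263 of the 292 had a start-proximal summit, or 90.1% (86.1 to 93.0%), against 85.4% of all genes of those quartiles. The median strength of the summits was 75 fragments, and 19.1% held a motif match. The zinc finger family Zfp had 259 of 362 genes, 71.5% (66.7 to 76.0%), with a match at 11.9% of summits.

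CpG-rich starts did not always carry a summit. Hox genes, which pattern the body axis in 4 clusters, had a start-proximal summit at 12 of 40 records, 30.0% (18.1 to 45.4%). The limit of 1 kb bears on this count, since 21 of 40, or 52.5%, had a summit within 2.5 kb, against 61.1% of all genes. In the upper CpG quartiles it was 10 of 26 records, or 38.5% (22.4 to 57.5%), against 85.4% of all genes there. Hoxa7 with 823 fragments, Hoxa5 with 603 and Hoxb5 with 471 were strong, and 7 of the 12 summits held a match. Replication-dependent histones, whose genes lie in clusters, had 31 of 67, 46.3% (34.9 to 58.1%), and 31 of 65 in the upper quartiles. A median of 80% of 50-base words around their starts were unique, and among the 35 genes with at least 80% it was 18, or 51.4%, against 59.7% of all such genes. Within 2.5 kb their share was 61.2%, no longer below the 61.1% of all genes. Their summits had a median of 60 fragments, and 32.3% overlapped Rad21, well below the 84.7% of start-proximal summits in general. Potassium channels had 31 of 94, and 21 of 44 in the upper quartiles. Collagens had 12 of 41, a share lower on the class list and higher within 2.5 kb, and 6 of 12 in the upper quartiles. Glutamate receptors had 9 of 26, and 5 of 13 there. The median CpG ratio of these last 3 families lay below that of all genes, as did that of the next. Clustered protocadherins, neuronal adhesion proteins whose promoters are known CTCF targets, had 15 of 24 records, 62.5% (42.7 to 78.8%). Genes with Pcdhb symbols, 12 of 21 with a start-proximal summit, make up most of these records, so the values describe mainly that cluster. The summits of the family were weak in liver, with a median of 40 fragments, but 12 of 23 held a match and 39.1% overlapped Rad21. Counting only peaks on the authors' class list of CTCF sites, 8 of 24 had one, or 33.3%, which is below the 48.9% of all genes. Pcdhgc5 led with 6 start-proximal summits, up to 408 fragments, over all its transcripts.

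The liver lists and the liver gene families differed. Over 12 lists of hepatocyte regulators, plasma proteins and metabolic pathways, 168 of 204 genes had a start-proximal summit, or 82.4% (76.5 to 87.0%), and 2 genes, 0.980%, were peak-free. Over 8 liver families drawn by symbol, which are cytochromes P450, the conjugating enzymes, carboxylesterases, alpha serpins, major urinary proteins and apolipoproteins, 69 of 234 genes did, or 29.5% (24.0 to 35.6%). Lists and families together had 233 of 434 genes, 53.7% (48.98 to 58.3%), near the 55.0% of all genes. Over 4 lists of markers of the other liver cells, 11 of 40 genes did, or 27.5% (16.1 to 42.8%), and 6 were peak-free. Other settings moved the shares of the liver families and of these markers well below and well above these values, as the section on processing gives. The intervals of the hepatocyte lists and of these markers do not overlap, while those of the liver families and of the markers do. In the lowest CpG quartile 45 of 63 genes of the hepatocyte lists had a start-proximal summit, or 71.4% (59.3 to 81.1%). The liver families there had 33 of 162, or 20.4% (14.9 to 27.2%), the markers of other cells 0 of 15, and all genes 10.9%. With peaks of a score of at least 100, these became 27 of 63, or 42.9%, 16 of 162, or 9.88%, and 0 of 15, against 8.22% of all genes. In the upper quartiles the hepatocyte lists had 83 of 93, or 89.2%, close to the 85.4% of all genes. The lists were put together with knowledge of these data, and expression was not measured in these files.

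The summits at CpG-poor starts of the hepatocyte lists were weak and mostly without a motif. They numbered 66, with a median of 41 fragments (36 to 54) and a median fold of 3.59. A match was present at 10.6% (5.23 to 20.3%). Summits at the starts of all other genes of the lowest CpG quartile had a median of 64 fragments (56 to 72) and a fold of 5.53, with a match at 29.8% (26.4 to 33.4%). Rad21 overlapped 77.3% and 74.2% of them, intervals that overlap. A score of at least 100 was reached by 50% of the first and 69.9% of the second.

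Complement and coagulation factors were of this form. They had a start-proximal summit at 27 of 36 genes, 75% (58.9 to 86.2%), of which 0 were strong. Of the 35 summits there, 1 held a match, and their median was 42 fragments (36 to 57). The strongest start-proximal summit of a gene ranged from 24 fragments at C6, of the membrane attack complex, to 305 at C2, with 36 at F2 (prothrombin) and 39 at Hc (complement C5). C3, Serpinc1 (antithrombin), Kng1 and Hrg had none near the start but 1 to 4 in the body. Among peaks with a score of at least 100 the share of this list was 47.2%, below the 49.8% of all genes at that limit. Acute phase proteins had 12 of 17, from 23 fragments at Apcs (serum amyloid P) to 386 at Saa3, with 28 at Hamp (hepcidin) and 41 at Hp (haptoglobin). With a score of at least 100 it was 5 of 17, or 29.4%, and on the class list 6 of 17, or 35.3%, in both cases below all genes (49.8% and 48.9%). Alb, the serum albumin gene, had no start-proximal summit and 1 in the body. Of its neighbours in the same family, Afp had 2 in the body and none near the start, Afm had none in the body and 35 fragments at the start, and Gc, the vitamin D binding protein, had 4 in the body with 129 fragments at the start. Apolipoproteins had 7 of 13, led by Apob with a strong summit of 634 fragments, with 91 at Apoa1. Within 2.5 kb it was 11 of 13, and on the class list 4 of 13. Alpha serpins, with the antitrypsin copies, had 1 of 22, Serpina12 at 30 fragments, and 36.4% were peak-free.

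Some regulators of hepatocytes held strong sites. Of 20 hepatocyte transcription factors, 17 had a start-proximal summit and 6 a strong one, or 30% (14.5 to 51.9%), against 7.97% of all genes. In the upper CpG quartiles 11 of 13 had a start-proximal summit, or 84.6%, against 85.4% of all genes there. A strong one was present in 11.6% and 13.4% of all genes of the third and the highest CpG quartile. All 32 summits at the starts of the 20 factors had a median of 62.5 fragments (51 to 107), and 12.5% held a match. The medians were 62 over the hepatocyte lists and 82 for all start-proximal summits. Cebpb had 1046 fragments, Cebpa 970, Foxa3 693, Tbx3 641, Gata6 424 and Foxa1 419, while Hnf4a, with 4 start-proximal and 13 body summits, reached 45. Foxa2, Onecut2 and Creb3l3 had none near the start. Nfia held the most body summits, 29. Of 22 nuclear receptors, 20 had a start-proximal summit, and 5 had a strong one. In the upper CpG quartiles it was 12 of 14, or 85.7%, against 85.4% of all genes. Nr3c1, the glucocorticoid receptor, led with 1193 fragments and Ppard followed with 1147. Ppara, the fasting-responsive fatty acid receptor, had 216 and Rxra 56. Nr2f1 and Vdr had none near the start.

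Growth hormone signalling shapes the liver of male mice through pulses that activate STAT5. Of 14 genes of this pathway, 11 had a start-proximal summit, or 78.6% (52.4 to 92.4%), an interval that includes the 55.0% of all genes. In the upper CpG quartiles it was 6 of 8, or 75%, against 85.4% of all genes. A strong one was present in 4 of the 14, or 28.6% (11.7 to 54.6%). The strong share of all genes was 7.97%, with 11.6% and 13.4% in the third and the highest CpG quartile. Cux2, a repressor with higher expression in female liver, had the strongest, at 1326 fragments, followed by Socs2, a STAT5 target and feedback inhibitor, at 737, the receptor Ghr at 725 and Jak2 at 455. Stat5a reached 389 and Stat5b 101. Ghr and Prlr each held 19 summits in the body. The repressor Bcl6, Igf1 and Igfbp3 had none near the start, and 6, 6 and 1 in the body. Clock genes had 17 of 18, with Bhlhe41 the exception, and 14 of 15 in the upper CpG quartiles, or 93.3% (70.2 to 98.8%). Bhlhe40 had 747 fragments, Nfil3 450, Per2 423 and Clock 195, while Nr1d1, the repressor REV-ERB alpha, had 3 start-proximal summits that did not exceed 39.

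Most genes of lipid synthesis had a start-proximal summit. Cholesterol synthesis and uptake had 20 of 21 genes, 95.2% (77.3 to 99.2%), all but Pmvk. Scap, the escort of SREBP, had 1002 fragments, Tm7sf2 736 and Dhcr7, a sterol reductase late in the pathway, 428. Fatty acid and triglyceride synthesis had 19 of 20, all but Dgat1, with Fads1 at 527 fragments, Agpat2 at 500, Fasn at 271 and Srebf1 at 86. In the upper CpG quartiles were 19 of the 21 cholesterol genes and 14 of the 20 fatty acid genes, and 85.4% of all genes there had a start-proximal summit. Acaca, acetyl-CoA carboxylase, held 18 summits in the body. The urea cycle and gluconeogenesis had 13 of 16, all but Cps1, Arg1 and Tat. Asl had 412 fragments and Ass1 388, while G6pc and Pck1, the fasting-induced enzymes of glucose release, had 32 and 43. Bile acid genes had 12 of 16, with an interval of 50.5 to 89.8% that includes the 55.0% of all genes. Abcb4, the phospholipid exporter, led with 569, and Cyp7a1, the rate-limiting enzyme, had 23.

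Enzyme families of drug metabolism were mixed. Cytochromes P450 had 27 of 97 genes, 27.8% (19.9 to 37.5%), with a median of 46 fragments, led by Cyp1b1 at 535. Of them, 66 were in the lowest CpG quartile, where 11 had a start-proximal summit, or 16.7% (9.57 to 27.4%), against 10.9% of all genes. Carboxylesterases had 10 of 21, all at CpG-poor starts and between 21 and 134 fragments, with 0 of 12 summits at a match. With a score of at least 100 they had 3 of 21, or 14.3%. UDP glucuronosyltransferases had 6 of 21, and 2 of 21 at that score. Sulfotransferases had 4 of 17 and glutathione transferases 14 of 22, led by Gstm1 at 747, while 10 of 22, or 45.5%, of these last genes had one at that score. Solute carriers had 215 of 343, 62.7% (57.5 to 67.6%), led by the haem transporter Slc48a1 at 1999, and ABC transporters 36 of 48.

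Marker genes of the other liver cells had few start-proximal summits. Their CpG ratio had a median of 0.274, against 0.568 for all genes. Peaks of whole tissue cannot be credited to a cell type. Of 11 Kupffer cell markers, C1qa alone had one, at 82 fragments, while Marco, Timd4, Cd5l and Clec4f had none near the start or in the body. Of 10 endothelial markers, Kdr had one at 28 fragments and Fcgr2b at 24, and Stab2 held 13 in the body. Of 11 stellate cell markers, Col1a1, the collagen of scar tissue, had 1766 fragments, and Reln 77, Lrat 26 and Col1a2 19. Of 8 cholangiocyte markers, 4 had one, among them Muc1 with 810 fragments, Sox9 with 47 and Epcam with 24. Fewer cells of a type and less binding per cell cannot be told apart in whole tissue.

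Some genes of the machinery itself held strong sites. Of 18 genes for CTCF, cohesin and its partners, 15 had a start-proximal summit and 6 a strong one, 33.3% (16.3 to 56.3%) against 7.97% of all genes. In the upper CpG quartiles were 15 of the 18, where 13 had a start-proximal summit, or 86.7%, against 85.4% of all genes, and where a strong one was present in 11.6% and 13.4% of all genes of the third and the highest quartile. The 24 summits at starts of the machinery had a median of 68.5 fragments (35 to 605), against 82 for all start-proximal summits. Esco1, a cohesin acetyltransferase, had 2098 fragments, Stag1 2086, Pds5b 1621, Ctcf 898, Pds5a 884 and Smc3 605. Rad21 itself reached 62 and Nipbl, the loader, 89. The germline genes Rad21l and Smc1b, and Esco2, had none near the start. Imprinted genes, several of which carry known CTCF sites at their control regions, had 20 of 36, 55.6% (39.6 to 70.5%), near the 55.0% of all genes. In the upper CpG quartiles it was 13 of 24, or 54.2% (35.1 to 72.1%), below the 85.4% of all genes there. In the lowest quartile it was 5 of 6, against 10.9% of all genes there. Only starts of protein-coding transcripts were counted, so the control regions themselves were not measured. Copg2 reached 736 fragments, H13 635, Grb10 539 and Blcap 353. Igf2 had 26, and Dlk1, Ndn, Magel2 and Mkrn3 had none near the start or in the body.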

How the data were processed

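Values were drawn from the CTCF libraries (4) and Rad21 libraries (3), each deposited as 1 list of peaks on pooled reads. Per the study's methods, the authors mapped reads with Bowtie2 to mm9, kept reads with a unique position, called peaks with MACS2 and removed blacklisted regions and peaks of duplicates alone. The deposited score is −log10 of the q-value times 10, the deposited fold is a ratio of fragments to local background with 1 added to each, and the deposited −log10 columns hold a p-value and a q-value (the second was not read). The authors also deposited a class list of CTCF sites with a motif score. Whether a control library entered the peak calls is not given in the sources used here, so the local background may come from the ChIP reads or from a control. Since reads were pooled, the depth behind a deposited peak in any 1 library is unknown.

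Fragments at a summit were recovered from the fold and −log10 p, with a misfit over 0.05 at 3 peaks. Gene bodies span the annotated record, and starts are those of protein-coding transcripts (8 genes had none and count as without a start-proximal summit). Chromosomes X, Y and M were left out. The families and lists, 62 in all, were read by symbol, with 11 of 312 listed symbols unmatched, and Klraq1 enters the killer lectin group by its letters alone. The members and lists were chosen with earlier results of these data known. Genes were named by rank: the first 10 by body summits, density, start-proximal fragments, body fragments and length without a summit, the first and last 8 symbol groups, genes of the 5 longest stretches, and the leading members of each family, while the other members named in the lists were chosen after their values were seen. Some genes that this rule names are not reported here. The functions were tested on simulated data. Alternatives were the distance to a start, transcript choice, score, class list, midpoint, flank, count limit and fold. Python 3.11.15, NumPy, SciPy, pandas and Matplotlib were used.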

Additional observations from a re-analysis of the deposited data

Results flagged for a closer look

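CTCF peaks on the chromosomes left out of the comparisons are given as values, since they are signal outside the main measurement. Chromosome X held 1596 CTCF peaks, or 2.08% of the list, with a median of 65.5 fragments and a highest of 3049. Chromosome Y held 99 peaks, with a median of 63 and a highest of 3271. The mitochondrial genome, chromosome M, held 8 peaks, with a median of 55.5 and a highest of 127.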

How the results depend on the processing

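With 500 bp in place of 1 kb, 15.6% of summits were start-proximal and 49.99% of genes had such a summit. With 2.5 kb the shares were 24.3% and 61.1%, and the ratio of median fragments was 1.32. With the longest transcript alone, 16.6% of summits were start-proximal, 55.9% lay in bodies and 52.2% of genes had a start-proximal summit. With a score of at least 100 (56182 peaks), the shares were 20.8% of summits near starts, 55.7% in bodies, 49.8% of genes with a start-proximal summit and 22.1% peak-free, 296 genes held 10 or more, and the ratio fell to 0.868. With peaks on the class list (51203 peaks), they were 21.9%, 55.7%, 48.9% and 23.1%, with 214 genes and a ratio of 0.746. With no flank 37.4% of genes were peak-free, and with 25 kb 14.7%. A limit of 5 or more summits gave 2715 genes. The fold gave a ratio of 0.95. The midpoint left all 6 results within their intervals. Of 433 family shares under alternatives, 383 stayed within the interval of the main share, and 23, in 11 families, lay on the other side of the share of all genes from the main value. For complement and coagulation, whose main interval excludes that share, these were 47.2% with a score of at least 100 and 41.7% on the class list. The other 10 families, with main intervals that include it, were acute phase proteins, clustered protocadherins, histones, apolipoproteins, glutathione transferases, the albumin family, Wnt ligands, forkhead factors, imprinted genes and cholangiocyte markers. On the class list carboxylesterases had 14.3%, UDP glucuronosyltransferases 9.52%, cytochromes P450 18.6%, collagens 17.1% and voltage-gated calcium channels 16%, and collagens had 46.3% within 2.5 kb. The pooled shares were recomputed after seeing the data. The hepatocyte lists ran from 62.3% on the class list to 89.7% within 2.5 kb, the liver families from 17.5% to 39.7%, and the markers of other cells from 12.5% to 40%. In the lowest CpG quartile 3 of 6 housekeeping genes had a start-proximal summit, and 0 with the longest transcript alone. Fewer peaks pass these limits by construction, and other causes were not tested. No paired analysis was possible because the pooled lists carry no replicate values, and leaving out a library was not run for the same reason.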
